A study of Homo sapiens with 12 samples.

Results

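SW480 and HT-29 are established human lines of colon adenocarcinoma. They were compared here after 72 h in what the labels call medium free of folic acid (FA). The groups were untreated SW480 (SW480_0, 3 arrays) and untreated HT-29 (HT-29_0, 3 arrays), 6 of the 12 arrays in the series. The other 6 arrays held the same lines kept as long with 10000 ng/mL FA. Both lines were seeded in 6-well plates in RPMI medium with serum, gentamycin and glutamine, and the labels call the arrays of a group biological replicates. Cells were seeded in triplicate, and whether the arrays came from separately grown cultures is not stated, so p-values measure the spread between these arrays. Each group is 1 line in culture, and a difference between the lines is a difference between 2 cell lines and not between 2 stages or types of tumour. Total RNA was hybridised to the Human Transcriptome Array 2.0, which reports 1 signal for each transcript cluster, a set of probes on 1 locus. Values are log2 signals, so that a difference of 1 is a change of 2-fold. All differences are SW480_0 minus HT-29_0.

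Colon adenocarcinoma lines differ in how much of the normal crypt they retain. The normal colon epithelium is renewed by stem cells at the crypt base that depend on Wnt signals, and their progeny mature into absorptive enterocytes and mucus-secreting goblet cells held together by E-cadherin junctions. When carcinoma cells lose junctions and gain vimentin and fibronectin, the change is called epithelial-mesenchymal transition (EMT), and the repressors ZEB1 and SNAI2 are known to drive it.

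The platform table gave a single symbol to 23781 of 67528 clusters. These stood for 22465 genes, and the cluster with the highest mean over the 12 arrays stood for a gene that had several. One array stood apart. The SW480_0 arrays had medians between 4.44 and 4.58 over all clusters. HT-29_0 replicate 3 had a median of 4.75 and an SD of 1.86, against medians of 4.36 and 4.40 and SDs of 2.20 and 2.19 on the other 2 HT-29_0 arrays. On that HT-29 array clusters with a level below 4 read 0.40 higher in the median than on the other HT-29_0 arrays, and clusters above 10 read 0.92 lower. Bright genes thus read dimmer and dim genes brighter on it. All results were therefore also computed without this array. Deposited values had 2 decimals, and 16.3% of the genes had the same value on all 3 arrays of at least 1 untreated group, and 1.62% in both untreated groups. Such a group adds no spread of its own, and the error of these genes comes from the other groups and from the variance shared over clusters.

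The lines differed at a large share of the genes. By limma with Benjamini-Hochberg adjustment, 8271 genes were higher in SW480_0 (36.8% of 22465) and 3830 were lower (17%). At a change of at least 2-fold the counts were 3217 and 951 genes, and at 8-fold 302 and 118 genes. Among the 8392 genes with a mean level of at least 6, 4248 were higher (50.6%) and 1184 were lower (14.1%). Without HT-29_0 replicate 3, 10323 genes were higher (46%) and 4931 were lower (21.9%), and 8101 and 3686 genes carried the same call in both fits. Over all genes the share of lower calls was 31.7% with this array and 32.3% without it, but it moved more among the brighter genes. The median difference of genes with a level of at least 6 was 0.46 with it and 0.31 without it, and the share of lower genes among those called was 21.8% with it and 32.3% without it. The share over all genes was 42.6% (7182 higher and 5332 lower genes) after another quantile normalization. The counts of gene groups below are to be read against these background shares.

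The labelled tissue was checked against markers of colon epithelium and of other cells. The epithelial markers EPCAM, KRT8, KRT18 and KRT19 were bright in both lines, with means of 12.55, 16.72, 15.60 and 13.24 in SW480_0 and 14.15, 16.97, 15.33 and 10.95 in HT-29_0. CDH17 and CEACAM5, both of colonic epithelium, lay below the array median of 4.45 in SW480_0, at 3.88 and 3.96, against 4.62 and 6.86 in HT-29_0. LGALS4 and KRT20 did so too, at 3.97 and 3.78 against 9.64 and 13.16 in HT-29_0. CDX2 was at 5.53 in SW480_0 and 4.49 in HT-29_0. Of the 11 markers of colon epithelium, 2 were higher and 7 lower, with a median difference of -1.60. Of the 8 markers of fibroblasts, 2 were higher and 2 lower, and the median level of the list ran from 4.14 to 4.20 over the SW480_0 arrays and from 3.94 to 4.28 over the HT-29_0 arrays, at or below the array median. Of the 9 markers of blood and endothelial cells, 2 were higher and 3 lower, against 4 and 3 without HT-29_0 replicate 3, with list medians from 3.88 to 4.10 and from 4.0 to 4.3. PTPRC, which marks white blood cells, was at 3.76 in SW480_0 and 3.81 in HT-29_0 and was not called, or called higher by 0.08 without HT-29_0 replicate 3. The macrophage marker CD68 stood above the array median in both lines, at 6.15 in SW480_0 and 7.71 in HT-29_0.

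Among genes called with and without HT-29_0 replicate 3, the largest difference was in keratin 5 (KRT5), a keratin of basal cells in stratified epithelium. It reached 17.55, 17.08 and 17.86 on the SW480_0 arrays, against 4.01, 4.01 and 3.98 on the HT-29_0 arrays, a difference of 13.50 ± 0.17 (SE, adjusted p = 5.54e-11). The largest difference in the other direction was in lysozyme (LYZ), the bactericidal enzyme of Paneth cells. It was at 5.05 on each SW480_0 array and at 18.58, 18.75 and 17.67 on the HT-29_0 arrays, a difference of -13.28 ± 0.22 (adjusted p = 1.96e-10). 

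The glucose transporter SLC2A3 followed, with 16.09, 15.23 and 16.07 in SW480_0 and 4.16, 4.16 and 4.40 in HT-29_0. CST1, a secreted inhibitor of cysteine proteases, had 12.96, 13.01 and 13.27 in SW480_0 and 3.57, 3.68 and 4.15 in HT-29_0. ANKRD1, a target of the YAP coactivator, had 12.84, 13.04 and 13.10 against 3.65, 3.65 and 4.09 in HT-29_0. Perforin (PRF1), the pore-forming protein of cytotoxic lymphocytes, had 12.91, 12.32 and 13.02 in SW480_0 against 4.43, 4.27 and 4.89 in HT-29_0, while the lymphocyte marker CD3E was at 4.31 and 4.27. The crosslinking enzyme TGM2 was higher by 8.17, the Wnt antagonist APCDD1 by 7.92, the monocyte attractant CCL2 by 7.88 and the membrane-binding protein ANXA6 by 7.71. The other 6 of the 15 largest were WNT5A (a Wnt ligand), HEG1, GLI3 (a transcription factor of Hedgehog signalling), FAM171B, IQGAP2 and EGR1, with differences from 7.60 to 7.18. The SW480_0 arrays lay between 10.79 and 17.86 for these 15 genes, against 3.57 to 9.63 for the HT-29_0 arrays.

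Among the genes lower in SW480_0, the noncoding RNA CCAT1 had 3.36, 3.80 and 3.36 in SW480_0 and 14.97, 14.55 and 12.91 in HT-29_0. The reductase AKR1B10 had 3.86, 4.04 and 3.86 against 14.17, 14.10 and 13.84 in HT-29_0. Keratin 20 (KRT20), the keratin of mature colon epithelium, had 3.78, 3.74 and 3.81 against 13.34, 13.34 and 12.79 in HT-29_0. These were followed by ALDH1A1 (-7.69), which makes retinoic acid, AKR1C2 (-7.57), the stress cytokine GDF15 (-7.40), POF1B (-7.38), the plasma protein APOH (-7.33), the cystine transporter SLC7A11 (-7.29), AKR1C3 (-6.97), the mucin-type glycan enzyme GCNT3 (-6.74), the EGFR ligand epiregulin (EREG, -6.42), CYP4F11 (-6.03) and the small GTPase RAB25 (-5.96). HT-29_0 replicate 3 was the dimmest HT-29_0 array in 15 of these 15 genes. For POF1B the values were 4.32, 4.32 and 4.33 in SW480_0 and 12.81, 12.94 and 9.35 in HT-29_0, and the difference was -8.55 without that array.

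**Figure D1:**
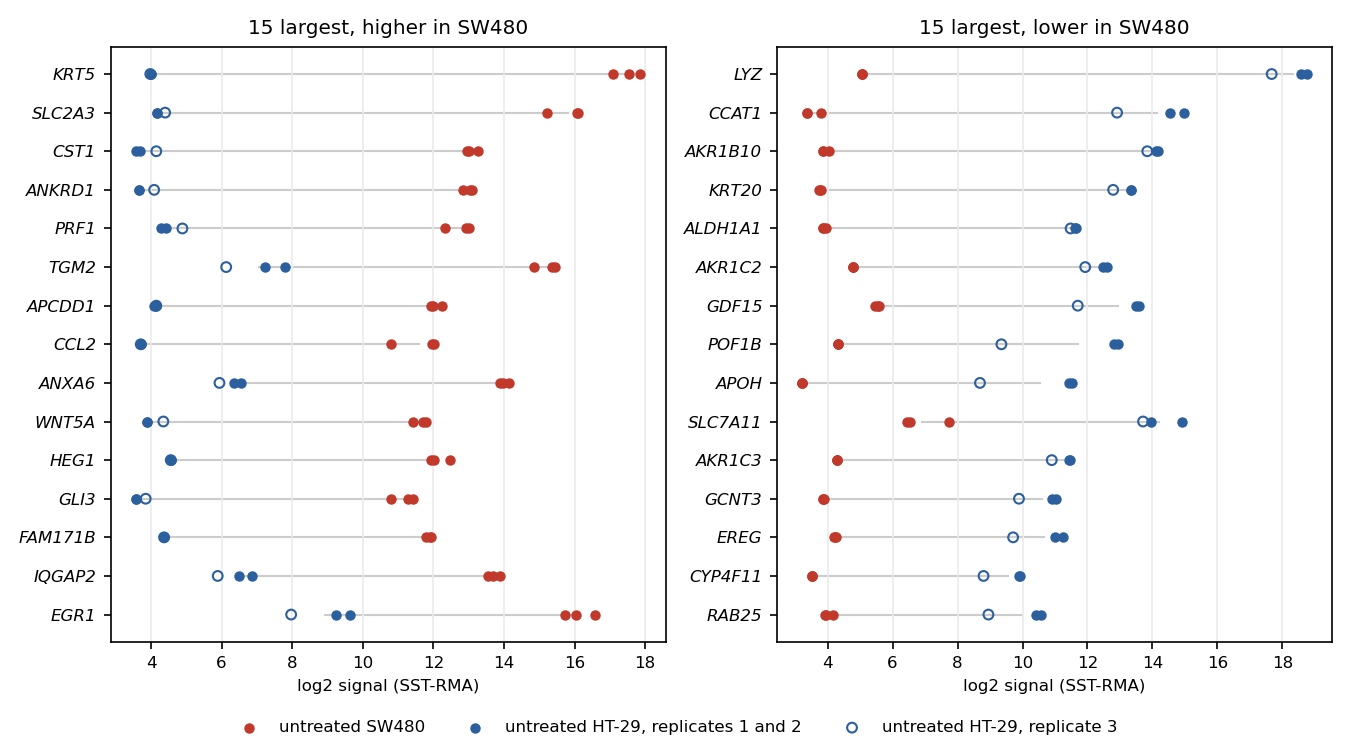
Log2 signal on each untreated array (x axis) for the 15 genes with the largest positive and the 15 with the largest negative difference (rows). Filled red points are SW480_0, filled blue points HT-29_0 replicates 1 and 2, open blue points HT-29_0 replicate 3, and grey lines join the group means. SW480_0 arrays lie between 10.79 and 17.86 in the left panel and between 3.22 and 7.73 in the right panel, and the open points lie left of the filled blue ones in every row of the right panel.

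Genes of epithelial junctions were mostly lower in SW480_0. Of 36 measured members, 23 were lower (63.9%), 7 were higher and 6 did not pass, and the median difference was -1.0, against 0.12 over all genes. E-cadherin (CDH1), the adhesion molecule of adherens junctions, had 8.11, 8.04 and 8.48 in SW480_0 and 12.90, 13.32 and 11.61 in HT-29_0, a difference of -4.40 ± 0.38 (adjusted p = 8.58e-06). RAB25, which returns integrins to the surface of epithelial cells, had 3.96, 4.16 and 3.92 against 10.41, 10.57 and 8.95 in HT-29_0. The desmosomal cadherin DSC2 was lower (-5.30) and AP1M2, an adaptor for sorting to the basolateral membrane, (-3.79). The claudin CLDN3 was lower (-3.10), and (-4.05) without HT-29_0 replicate 3, on which it read 8.97 against 11.67 and 11.98 on the other HT-29_0 arrays. SW480_0 still held much of the junction machinery. DSP (1.84), the desmosomal plakin, PKP2 (3.34), CTNNA1 (1.99) and CTNNB1 (3.72) were higher, EPCAM was lower (-1.60) at a level of 12.55, and TJP1 had a mean of 11.62 in both lines, though it was called lower (-0.39) without HT-29_0 replicate 3.

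Regulators that maintain epithelial identity were lower in most cases. Of 13 measured, 11 were lower (84.6%), 0 were higher and 2 did not pass, with a median of -1.41. GRHL2, a transcription factor that activates CDH1, had 4.04, 4.10 and 4.04 in SW480_0 and 8.86, 8.89 and 7.62 in HT-29_0. The splicing factor ESRP1, which sets the epithelial isoforms of many transcripts, had 6.98, 6.86 and 7.14 against 10.80, 10.90 and 10.03 in HT-29_0. EHF, an ETS factor of epithelia, was lower (-4.26), FOXA1 (-2.61), KLF5 (-2.49) and ELF3 (-1.39). ESRP2 (-0.26, adjusted p = 0.507) and OVOL2 (-0.15) did not pass, and ESRP2 passed without HT-29_0 replicate 3 (-0.66).

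The EMT transcription factors did not move as a group. Of 13, 4 were higher and 3 lower (30.8% and 23.1%, near the shares over all genes), with a median of 0.07. Without HT-29_0 replicate 3, 5 were higher and 5 lower. ZEB1, which represses CDH1, was at 7.74 on each SW480_0 array and at 4.92, 4.76 and 5.08 in HT-29_0, a difference of 2.82 ± 0.07 (adjusted p = 2.48e-09). SNAI2, a repressor of the same kind, had 6.25, 6.60 and 6.31 against 3.70, 3.67 and 4.11 in HT-29_0. GSC and FOXC2 were also higher, by 0.59 and 0.41, with HT-29_0 means of 4.28 and 3.13. SNAI1 was at 4.75 in SW480_0 and 4.54 in HT-29_0 and TWIST2 at 3.47 and 3.40, and neither passed. TWIST1 (-0.36), TCF3 (-1.02) and FOXQ1 (-0.72) were lower.

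Mesenchymal and matrix genes were more often higher. Of 40, 24 were higher (60%), 7 lower and 9 not called, with a median of 0.81. Vimentin (VIM), the intermediate filament of mesenchymal cells, had 9.36, 8.79 and 9.26 in SW480_0 and 3.62, 3.62 and 3.89 in HT-29_0. Fibronectin (FN1) had 10.13, 9.37 and 10.10 against 3.69, 3.69 and 4.21 in HT-29_0. The receptor tyrosine kinase AXL was higher by 5.60, the matrix protein SPARC by 2.95, the membrane protease MMP14 by 2.85, LOXL2, which crosslinks collagen, by 2.56 and the urokinase PLAU by 2.52. N-cadherin (CDH2), often gained in EMT, was at 4.06 in SW480_0 and 4.14 in HT-29_0 and was not called, or called higher by 0.12 without HT-29_0 replicate 3. The proteoglycan BGN ran the other way, with 3.86, 3.90 and 3.86 in SW480_0 against 9.0, 9.54 and 6.5 in HT-29_0, and the matrix protease MMP7 was lower (-2.53). The fibrillar collagens COL1A1 (5.03 in SW480_0 and 4.38 in HT-29_0) and COL1A2 (4.32 and 4.25) stayed close to the array median in both lines.

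**Figure D2:**
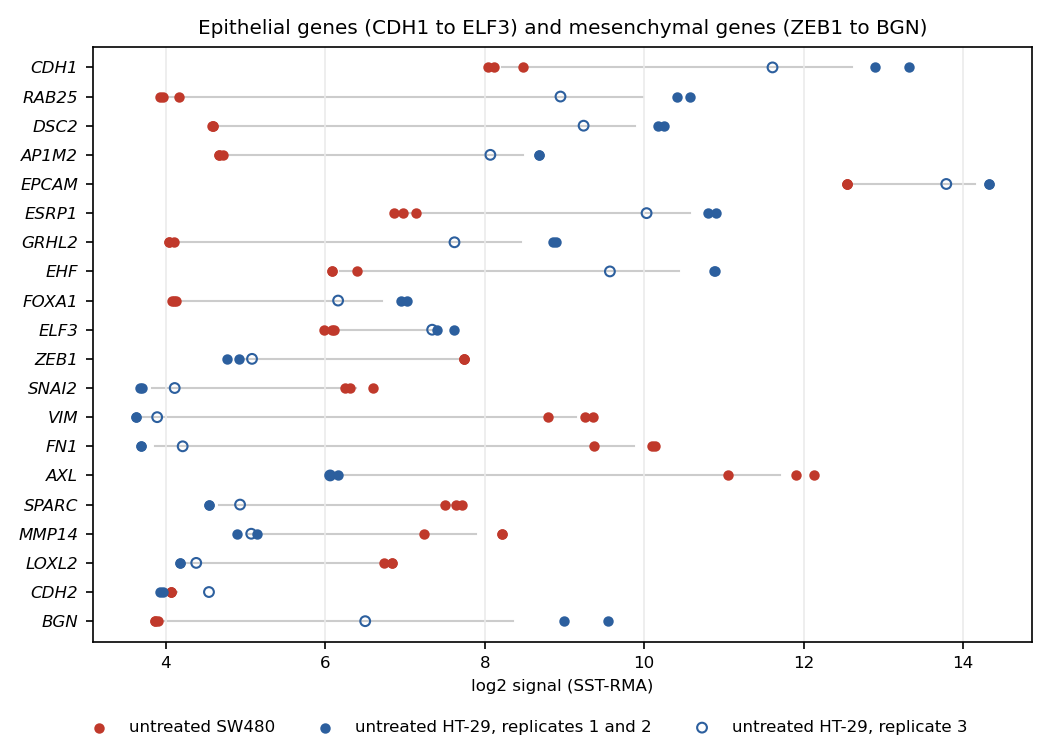
Log2 signal on each untreated array (x axis) for 10 epithelial genes (CDH1 to ELF3) and 10 mesenchymal genes and EMT factors (ZEB1 to BGN), with red points for SW480_0, filled blue points for HT-29_0 replicates 1 and 2 and open points for HT-29_0 replicate 3. Red points lie left of blue ones for each of the first 10 genes and right of them from ZEB1 to LOXL2, while CDH2 overlaps and BGN is lower in SW480_0.

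ZEB1 and SNAI2 belong to families of repressors known to bind the E-box CACCTG. The RefSeq promoter windows (GRCh38.p14) around the start of each gene were searched for these letters on both strands. Windows were given for 15247 of the 22465 genes, and 19.9% of them held at least 1 match. Of the 34 epithelial junction and regulator genes called lower, 22 had a window, and 10 of these held a match (45.5%), against 3 of 10 (30%) for the members not called lower. No window was given for CDH1, so it was not searched. Over all genes called lower, 22.6% of the windows held a match. A match is a run of letters and not a measured site, and the motif was chosen with the expression values known. The window of CRB3 (-0.39) held 5 matches, and those of EHF (-4.26) and KLF5 (-2.49) held 0. Whether a repressor acts at any of these windows was not tested. The windows of RAB25 and AP1M2 are shown because both genes were lower, with means of 4.01 and 4.68 in SW480_0 and 9.98 and 8.48 in HT-29_0, and their windows held 2 and 3 matches. The capitals mark the matches. RAB25 is on chr1:156060910-156061209 (plus strand) and AP1M2 on chr19:10587263-10587562 (minus strand).
RAB25: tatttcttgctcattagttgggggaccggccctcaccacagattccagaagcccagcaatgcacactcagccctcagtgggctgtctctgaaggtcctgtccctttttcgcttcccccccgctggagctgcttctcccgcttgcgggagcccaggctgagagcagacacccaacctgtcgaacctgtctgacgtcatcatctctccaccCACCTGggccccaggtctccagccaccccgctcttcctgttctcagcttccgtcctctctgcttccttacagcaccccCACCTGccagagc
AP1M2: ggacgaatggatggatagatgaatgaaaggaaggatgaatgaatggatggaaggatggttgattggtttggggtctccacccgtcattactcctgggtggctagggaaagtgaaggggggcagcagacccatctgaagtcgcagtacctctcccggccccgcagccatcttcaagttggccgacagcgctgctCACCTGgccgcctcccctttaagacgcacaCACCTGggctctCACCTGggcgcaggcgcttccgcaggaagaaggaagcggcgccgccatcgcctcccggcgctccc

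The microRNAs of the miR-200 family are known to repress ZEB1 through its transcript, and their loci are among the 36 microRNA loci measured. The mature strands that carry the family seed (bases 2 to 8, in capitals, from RefSeq) are shown because the family is defined by it. The first 3 share a seed, and the last 2 share another that differs from it at 1 base.
hsa-miR-200b-3p: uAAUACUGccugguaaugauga
hsa-miR-200c-3p: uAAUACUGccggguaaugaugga
hsa-miR-429: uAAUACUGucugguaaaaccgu
hsa-miR-200a-3p: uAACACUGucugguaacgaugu
hsa-miR-141-3p: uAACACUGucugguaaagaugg
A cluster on this array reads the precursor locus and not the mature strand. MIR141 had 3.98, 4.52 and 4.18 in SW480_0 and 5.13, 4.97 and 4.86 in HT-29_0, a difference of -0.76 ± 0.13 (adjusted p = 0.00113). MIR429 had 2.83, 2.80 and 2.86 against 3.40, 3.46 and 3.40 in HT-29_0, below the array median in both lines. MIR200C (-0.53, adjusted p = 0.0636) and MIR200A (-0.40, adjusted p = 0.051) did not pass, although MIR200A was called lower (-0.20) without HT-29_0 replicate 3, and MIR200B, which shares its transcript with MIR200A and MIR429, was at 5.61 in SW480_0 and 5.45 in HT-29_0. In the whole list 7 loci were higher and 6 lower, a median of -0.09 that turned to 0.03 without HT-29_0 replicate 3. MIR21, often raised in carcinoma, had 10.25, 12 and 9.67 in SW480_0 and 8.95, 8.47 and 5.72 in HT-29_0, a difference of 2.93 (adjusted p = 0.0203) and of 1.93 without that array. MIR146A was higher by 1.41. MIR221 was lower (-1.63), with 4.96, 5.20 and 5.08 in SW480_0 and 7.82, 7.12 and 5.18 in HT-29_0, and MIR222 of the same cluster (-0.68).

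Markers of mature intestinal epithelium were more often lower. Of 49 enterocyte and brush border genes, 24 were lower (49%), 9 higher and 16 not called, with a median of -0.27, or -0.13 without HT-29_0 replicate 3. Of the 9 members with a level of at least 6, 8 were lower. Galectin 4 (LGALS4) had 3.92, 4.04 and 3.96 in SW480_0 and 9.91, 10.01 and 9.0 in HT-29_0. The brush border peptidase DPP4 had 3.95, 4.13 and 3.95 against 8.84, 8.84 and 7.97 in HT-29_0. Villin (VIL1), the actin bundler of microvilli, had 5.61, 5.47 and 5.61 against 7.50, 7.80 and 7.48 in HT-29_0. The carbonic anhydrase CA12 was lower (-3.94) and the brush border scaffold USH1C (-1.41). Many hallmark genes of the enterocyte were dim in both lines. Sucrase-isomaltase (SI) was at 3.73 in SW480_0 and 4.0 in HT-29_0, FABP1 at 3.74 and 3.81, and neither passed, although SI was called lower (-0.12) without HT-29_0 replicate 3. Ezrin (EZR), which links microvilli to the membrane, was higher by 0.98, at a level of 14.11.

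Goblet and secretory genes showed the same direction. Of 42, 18 were lower (42.9%), 4 higher and 20 not called, with a median of -0.18. Without HT-29_0 replicate 3, 20 were lower and 9 higher, with a median of -0.09. AGR2, a disulfide isomerase needed for mucin folding, had 3.77, 3.79 and 3.77 in SW480_0 and 7.53, 7.45 and 6.77 in HT-29_0. The trypsin inhibitor SPINK1 had 4.02, 3.95 and 3.94 against 7.95, 7.95 and 6.67 in HT-29_0. MUC20 was lower (-3.79), BCAS1 (-2.17) and MUC13, a membrane mucin, (-1.26). The gel-forming mucin MUC2 was dim in both lines, with a mean of 4.58 in SW480_0 and 4.96 in HT-29_0, and was called lower (-0.38). SERPINA1, the protease inhibitor antitrypsin, was higher by 1.77.

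Intestinal transcription factors moved both ways. Of 28, 13 were lower (46.4%), 9 higher and 6 not called, with a median of -0.15, or -0.08 without HT-29_0 replicate 3. HNF4G was lower (-2.32), GATA6 (-2.28) and PPARG, a nuclear receptor of the mature colonocyte, (-2.06). SPDEF, which drives goblet cell maturation, had 5.20, 5.27 and 5.20 in SW480_0 against 7.45, 7.56 and 7.43 in HT-29_0. HES1, the Notch target that favours the absorptive fate, was higher, with 14.13, 14.11 and 14.45 against 10.21, 10.74 and 9.55 in HT-29_0. SOX9 was higher by 2.50 (1.92 without HT-29_0 replicate 3) and the vitamin D receptor VDR by 2.31. CDX2, the master regulator of intestinal identity, was low in both lines but higher in SW480_0, with 5.49, 5.40 and 5.69 against 4.44, 4.52 and 4.52 in HT-29_0. ATOH1, which commits cells to the secretory fate, was at 4.01 in SW480_0 and 4.03 in HT-29_0.

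Most keratins were higher in SW480_0. KRT8 and KRT18, the partner keratins of simple epithelium, did not pass, with differences of -0.25 and 0.27 at levels above 15, though KRT8 was called lower (-0.43) without HT-29_0 replicate 3, as was KRT80, for 3 lower keratins in all. KRT20 was lower and 10 of 15 keratins were higher (66.7%). Of the 8 keratins with a level of at least 6, 4 were higher and 1 lower, near the 50.6% and 14.1% of all genes of that level. Their median was 1.27, against 0.46 over all such genes. KRT23 had 8.61, 8.53 and 8.50 in SW480_0 and 4.72, 4.77 and 4.78 in HT-29_0, KRT13 was higher by 2.27, KRT19 by 2.29 and KRT7 by 0.94. KRT14, the usual partner of KRT5 in basal cells, was called higher by 0.38, at 4.49 in SW480_0 and 4.11 in HT-29_0, close to the array median in both lines. In the CEACAM family, adhesion molecules that include the carcinoembryonic antigen used as a tumour marker, CEACAM5 had 3.93, 3.94 and 4.02 against 6.95, 6.96 and 6.67 in HT-29_0 and CEACAM6 had 3.78, 3.92 and 3.85 against 7.55, 7.56 and 7.51. These 2 genes are close in sequence and may share probes. The other 10 members differed by less than 1, with 3 members higher in the family and 5 lower.

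**Figure D3:**
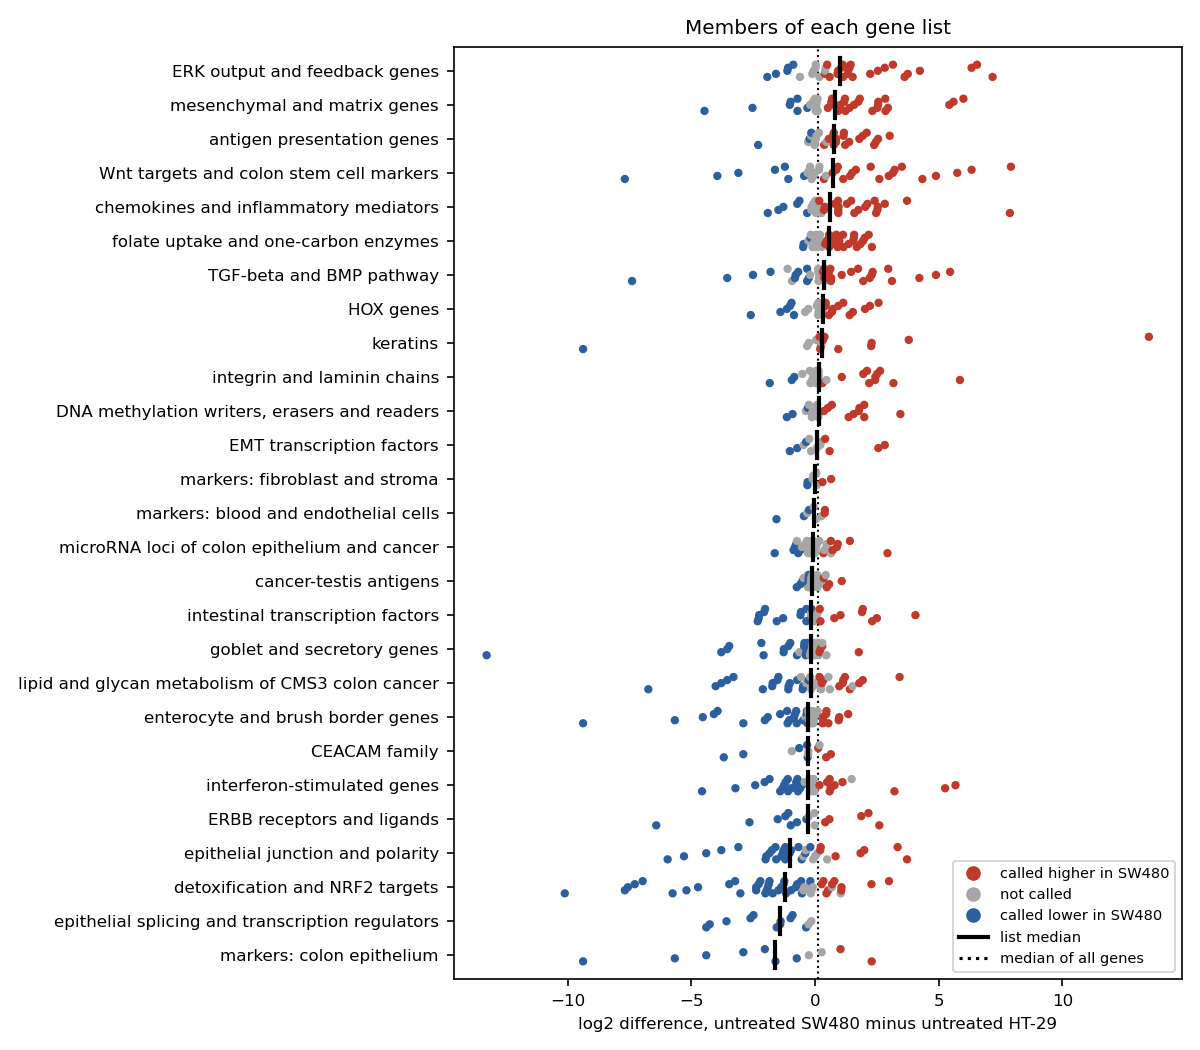
Log2 difference between untreated SW480 and untreated HT-29 (x axis) for each measured member of each gene list (rows, ordered by median). Red points were called higher in SW480, blue points lower and grey points were not called, black bars are list medians and the dotted line is the median of all genes (0.12). List medians run from 0.99 for ERK output genes to -1.60 for colon epithelium markers.

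Targets of Wnt signalling, which drives the crypt stem cell and is active in most colon carcinomas, were more often higher in SW480_0. Of 35 Wnt targets and stem cell markers, 19 were higher (54.3%), 7 lower and 9 not called, with a median of 0.71. AXIN2, a feedback inhibitor and direct target, had 12.48, 12.23 and 12.84 in SW480_0 and 8.34, 8.49 and 7.70 in HT-29_0, a difference of 4.34 ± 0.21 (adjusted p = 1.47e-07). NKD1, another feedback inhibitor, had 12.64, 11.78 and 12.60 against 6.58, 6.60 and 6.58 in HT-29_0. LEF1, a nuclear partner of beta-catenin, had 7.65, 7.28 and 7.62 against 3.89, 3.89 and 4.23 in HT-29_0. The secreted antagonists NOTUM (2.25) and DKK4 (2.98) were higher, as were MYC (3.15) and BAMBI (4.89). Cyclin D1 (CCND1) had 16.14, 15.88 and 16.14 against 9.85, 10.17 and 9.15 in HT-29_0. The transcript of beta-catenin itself (CTNNB1) was higher by 3.72 and TCF7L2, the main TCF factor of the colon, was lower (-1.29), though both were listed with other groups.

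Stem cell markers in the list went both ways. The negative regulator of ERBB receptors LRIG1 (2.60), the RNA-binding protein MSI1 (1.5) and the receptor TNFRSF19 (3.22) were higher. LGR5, the receptor that marks crypt base stem cells, was at 3.71 on each SW480_0 array and at 5.45, 5.62 and 4.92 in HT-29_0. PROM1 was lower (-3.10), CD24 (-3.95) and ALCAM (-1.08). OLFM4 (3.61 in SW480_0 and 3.91 in HT-29_0), SMOC2 (3.81 and 4.03) and CD44 (10.61 and 10.75) were not called. The other 3 lower members were ALDH1A1, the receptor kinase EPHB4 and the receptor phosphatase PTPRO.

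Genes switched on by the ERK kinase cascade had the highest list median, 0.99. Of 36, 23 were higher (63.9%), 5 lower and 8 not called. DUSP6, the phosphatase that switches ERK off again, had 14.23, 14.24 and 14.23 in SW480_0 and 8.02, 7.80 and 7.22 in HT-29_0, a difference of 6.55 ± 0.16 (adjusted p = 1.65e-09). The immediate early factor EGR1 had 16.05, 15.74 and 16.59 against 9.23, 9.63 and 7.97 in HT-29_0. The feedback inhibitor SPRY4 was higher by 3.62, IER3 by 4.24, and the ETS factors ETV5, ETV4 and ETV1 by 2.23, 1.44 and 1.12. Not every ERK target followed. SPRED1 (-1.58) and SPRY1 (-1.12), both inhibitors of the cascade, FOSB (-1.93) and JUN (-0.88) were lower, and DUSP4 was at 5.57 in SW480_0 and 5.39 in HT-29_0 and did not pass. MYC and CCND1 stand in this list and in the Wnt list.

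Upstream of ERK, the ERBB receptors and their ligands were split. EGFR had 10.15, 9.46 and 10.27 in SW480_0 and 8.07, 8.20 and 7.12 in HT-29_0, while ERBB3, the receptor with an impaired kinase, was lower (-1.20). ERBB4 was at 4.01 in SW480_0 and 4.02 in HT-29_0. Among the ligands EREG had 4.25, 4.24 and 4.20 against 11.25, 11 and 9.71 in HT-29_0, and BTC (-1.08) and EGF (-0.98) were lower too. NRG2 was higher by 1.87 and HBEGF by 0.58. ERRFI1, a feedback inhibitor of EGFR, was lower (-2.65). Of the 16 members 5 were higher and 8 lower.

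In the TGF-beta and BMP pathway, which restrains growth of the colon epithelium, 20 of 39 members were higher (51.3%) and 10 lower, with a median of 0.37. Of the 22 members with a level of at least 6, 11 were higher and 5 lower, with a median of 0.35. Over all genes of that level 50.6% were higher and 14.1% lower, with a median of 0.46, so the pathway was not higher as a group. SMAD4, the common mediator of both arms, was near the array median in SW480_0, with 4.61, 4.69 and 4.61, against 7.51, 7.36 and 6.56 in HT-29_0. The BMP target ID1 was lower (-3.55) and the inhibitory SMAD6 (-1.80), while ID2 was higher by 1.46. The ligand BMP7 had 9.40, 9.07 and 9.45 against 3.81, 3.81 and 3.91 in HT-29_0. The receptor TGFBR1 had 9.08, 9.11 and 9.25 against 6.10, 6.10 and 5.91 in HT-29_0, the ligand TGFB1 was higher by 2.21 and the ubiquitin ligase SMURF2 by 4.22. TGFBR2 (-0.93) and BMP4 (-1.11) did not pass with all arrays, and both passed as lower without HT-29_0 replicate 3 (-1.62 and -1.87).

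Receptors for the matrix also differed by chain. Of 27 integrin and laminin chains, 11 were higher (40.7%), 3 lower (11.1%) and 13 not called, against 16 higher and 5 lower without HT-29_0 replicate 3. Shares over all genes were near these, with 36.8% higher and 17% lower. Among the 12 chains with a level of at least 6, 9 were higher and 1 lower, against 50.6% and 14.1% of all such genes. ITGA5, the fibronectin receptor chain, had 10.37, 9.36 and 9.77 in SW480_0 and 3.89, 3.89 and 4.15 in HT-29_0. ITGB5 was higher by 3.17, LAMC1 by 2.63, ITGA7 by 2.51 and ITGAV by 2.43. ITGB6, the epithelial partner of ITGAV, was at 4.03 on each SW480_0 array and at 5.92, 6.01 and 5.66 in HT-29_0, and ITGB1, the most common beta chain, was lower (-0.94).

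Detoxification genes and targets of the oxidant sensor NRF2 were mostly lower in SW480_0. Of 50, 32 were lower (64%), 10 higher and 8 not called, with a median of -1.21. Of the 35 members with a level of at least 6, 24 were lower and 4 higher. The aldo-keto reductases AKR1B10, AKR1C2, AKR1C3, AKR1C1 (-5.20) and AKR1C4 (-1.71) were all lower, but the AKR1C genes are near-identical copies whose probes may share signal. The cystine transporter SLC7A11 had 7.73, 6.55 and 6.45 in SW480_0 and 14.91, 13.97 and 13.71 in HT-29_0, and its difference on the FA-treated arrays was -4.36. The enzymes of glutathione synthesis GCLM (-3.02) and GCLC (-1.87), haem oxygenase HMOX1 (-3.23), the thioredoxin reductase TXNRD1 (-2.38), the quinone reductase NQO1 (-2.21) and the glutathione peroxidase GPX2 (-5.76) were lower. NQO1 was still at 12.88 in SW480_0, against 15.09 in HT-29_0. The pentose phosphate enzymes PGD (-1.84) and TALDO1 (-1.37), which supply NADPH, were lower as well.

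The transcript of NRF2 itself (NFE2L2) had 9.16, 9.16 and 8.99 in SW480_0 and 9.70, 9.55 and 8.70 in HT-29_0 and did not pass (-0.21, adjusted p = 0.456), although it passed as lower without HT-29_0 replicate 3 (-0.52). KEAP1, which marks NRF2 for degradation, was higher by 0.69 ± 0.14 (adjusted p = 0.00334). The drug exporter ABCB1 was higher by 2.28 and ABCG2 lower (-3.47). The retinaldehyde enzymes differed in opposite directions. ALDH1A1 was at 3.87, 3.94 and 3.87 in SW480_0 and at 11.66, 11.62 and 11.48 in HT-29_0, while ALDH1A3 was at 11.73, 11.02 and 11.95 in SW480_0 and at 8.68, 8.62 and 8.43 in HT-29_0.

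Genes induced by interferon were split by family. Of 38, 18 were lower (47.4%), 10 higher and 10 not called, with a median of -0.30, or -0.51 without HT-29_0 replicate 3. IFIT2, which blocks translation of viral RNA, had 4.21, 4.20 and 4.37 in SW480_0 and 6.28, 6.39 and 6.22 in HT-29_0. SAMD9 was lower (-3.22), IFI44 (-2.42), OAS1, a sensor of double-stranded RNA, (-1.41) and ISG15 (-1.31). The IFITM proteins, which block viral entry, went the other way. IFITM3 had 13.56, 13.14 and 13.97 against 8.49, 9.05 and 7.36 in HT-29_0, IFITM2 was higher by 5.68 and IFITM1 by 3.21, though IFITM2 and IFITM3 are close copies. IFI27 varied between the HT-29_0 arrays, with 4.76, 4.88 and 4.78 in SW480_0 and 9.25, 11.18 and 7.70 in HT-29_0. For IFI6 a single array set the sign. It had 10.64, 11.60 and 10.74 in SW480_0 and 10.56, 12.07 and 5.90 in HT-29_0, so that the difference of 1.48 became -0.32 without HT-29_0 replicate 3, and neither passed.

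Antigen presentation genes were more often higher in SW480_0. Of 29, 18 were higher (62.1%), 3 lower and 8 not called, with a median of 0.76. Without HT-29_0 replicate 3, 20 were higher and 5 lower. The class I heavy chain HLA-B had 9.06, 8.95 and 9.25 in SW480_0 and 6.01, 6.11 and 6.09 in HT-29_0, and each of its 6 clusters was higher. Its light chain B2M was at 13.15 in SW480_0 and 13.18 in HT-29_0 and was not called. The peptide transporter TAP1 (1.17) and the peptide-trimming enzyme ERAP1 (2.39) were higher, and ERAP2, its relative, was lower (-2.30). The class II genes HLA-DRA (2.09), HLA-DRB1 (1.93) and CD74 (2.55), the invariant chain, were higher, as was CIITA, their activator, with 5.02 on each SW480_0 array and 3.84, 3.84 and 3.94 in HT-29_0. HLA genes vary between people and have close copies, so probes may read alleles of the 2 lines unequally.

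Chemokines and inflammatory mediators were higher for 21 of 36 members (58.3%) and lower for 6, with a median of 0.60. CCL2 had 10.79, 11.97 and 12.01 in SW480_0 and 3.71 on each HT-29_0 array. The neutrophil attractant CXCL8 had 8.94, 9.26 and 8.80 in SW480_0, against 6.57, 6.23 and 6.57 in HT-29_0. CXCL1, of the same family, had 6.88, 6.93 and 6.93 against 4.47, 4.19 and 4.51 in HT-29_0. CXCL14 was higher by 3.72, LIF by 2.82, CCL20 by 2.47 and TNF by 2.41. Interleukin 18 (IL18), a cytokine of the normal colon epithelium, was lower (-1.91), and PTGS2 and PTGS1, the cyclooxygenases, were lower (-1.48 and -1.28).

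Folate enters cells through the reduced folate carrier (SLC19A1), the proton-coupled carrier (SLC46A1) and folate receptors, and is held inside as polyglutamates made by FPGS and cleaved by GGH. It then carries single carbons for purines, thymidylate and methionine. Since the study asked how these lines respond to FA, the state of this pathway without added FA was listed gene by gene. Of 41 measured members, 25 were higher in SW480_0 (61%, against 36.8% of all genes), 3 were lower (7.32%) and 13 did not pass, with a median of 0.57. Of the 24 members with a level of at least 6, 19 were higher and 1 lower, with a median of 0.97 against 0.46 over all genes of that level. The differences ran from -0.48 to 2.30. Without HT-29_0 replicate 3 the count of higher members was 28, and on the FA-treated arrays it was 22.

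In uptake and retention, SLC19A1 was at 6.59 on each SW480_0 array and at 5.84 on each HT-29_0 array, a difference of 0.75 whose error these equal values do not measure. SLC46A1 had 6.11, 5.81 and 6.11 in SW480_0 and 5.94, 6.02 and 5.26 in HT-29_0 and did not pass (adjusted p = 0.265). The folate receptor FOLR1 had 6.60, 6.59 and 6.87 against 5.43, 5.43 and 5.13 in HT-29_0, a difference of 1.36 ± 0.10 (adjusted p = 3.39e-06), and FOLR2 was higher by 0.41 with levels below the array median. The mitochondrial carrier SLC25A32 was at 8.13 in SW480_0 and 8.12 in HT-29_0. GGH, which releases folate from polyglutamates, had 8.64, 8.62 and 8.60 against 6.79, 6.79 and 6.24 in HT-29_0, and FPGS, which adds the glutamates, was higher by 0.46.

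In nucleotide synthesis, GART and ATIC, which make purines with folate carbons, were higher by 2.30 and 1.69. GART had 10.32, 10.08 and 10.45 in SW480_0 and 8.05, 8.12 and 7.78 in HT-29_0. MTHFD1, which interconverts the cytosolic folates, had 11, 10.75 and 11.47 against 9.09, 9.21 and 8.40 in HT-29_0. Thymidylate synthase (TYMS) had 10.58, 10.42 and 10.53 against 9.14, 9.09 and 8.68 in HT-29_0, a difference of 1.54 ± 0.13 (adjusted p = 9.43e-06). SHMT1 and SHMT2, which load carbons from serine, were higher by 0.95 and 0.92, and the enzymes that make serine followed, PHGDH by 1.84, PSAT1 by 1.57 and PSPH by 1.58. MTHFD2, the mitochondrial enzyme, had 11.68, 11.74 and 11.32 against 12.21, 11.91 and 11.43 in HT-29_0, and the groups overlapped. MTHFS (-0.46) and DHFR2 (-0.48) were lower.

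In the methyl cycle, methionine synthase (MTR) was higher by 1.13 and its reductase MTRR by 0.57, or by 0.28 without HT-29_0 replicate 3. MAT2A, which makes S-adenosylmethionine, had 11.65, 11.12 and 11.30 in SW480_0 and 10.56, 10.60 and 9.97 in HT-29_0, and AHCY, which clears the product of methylation, was higher by 1.15 with equal values on the arrays of each line. CBS and CTH, which drain homocysteine into cysteine, were higher by 1.94 and 0.57. GNMT was lower (-0.18) at levels below the array median. BHMT, BHMT2, MAT1A and GLDC, enzymes of liver, were dim in both lines and not called, although MAT1A (0.19) and GLDC (0.14) were called higher without HT-29_0 replicate 3. Each of the 4 members on chromosome 21 (GART, CBS, SLC19A1 and FTCD) was higher. Most of that chromosome was too: 140 of its 289 genes were higher and 26 lower, and 88.3% of those with a level of at least 6 were higher. The higher calls of these 4 members are therefore not particular to folate genes.

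**Figure D4:**
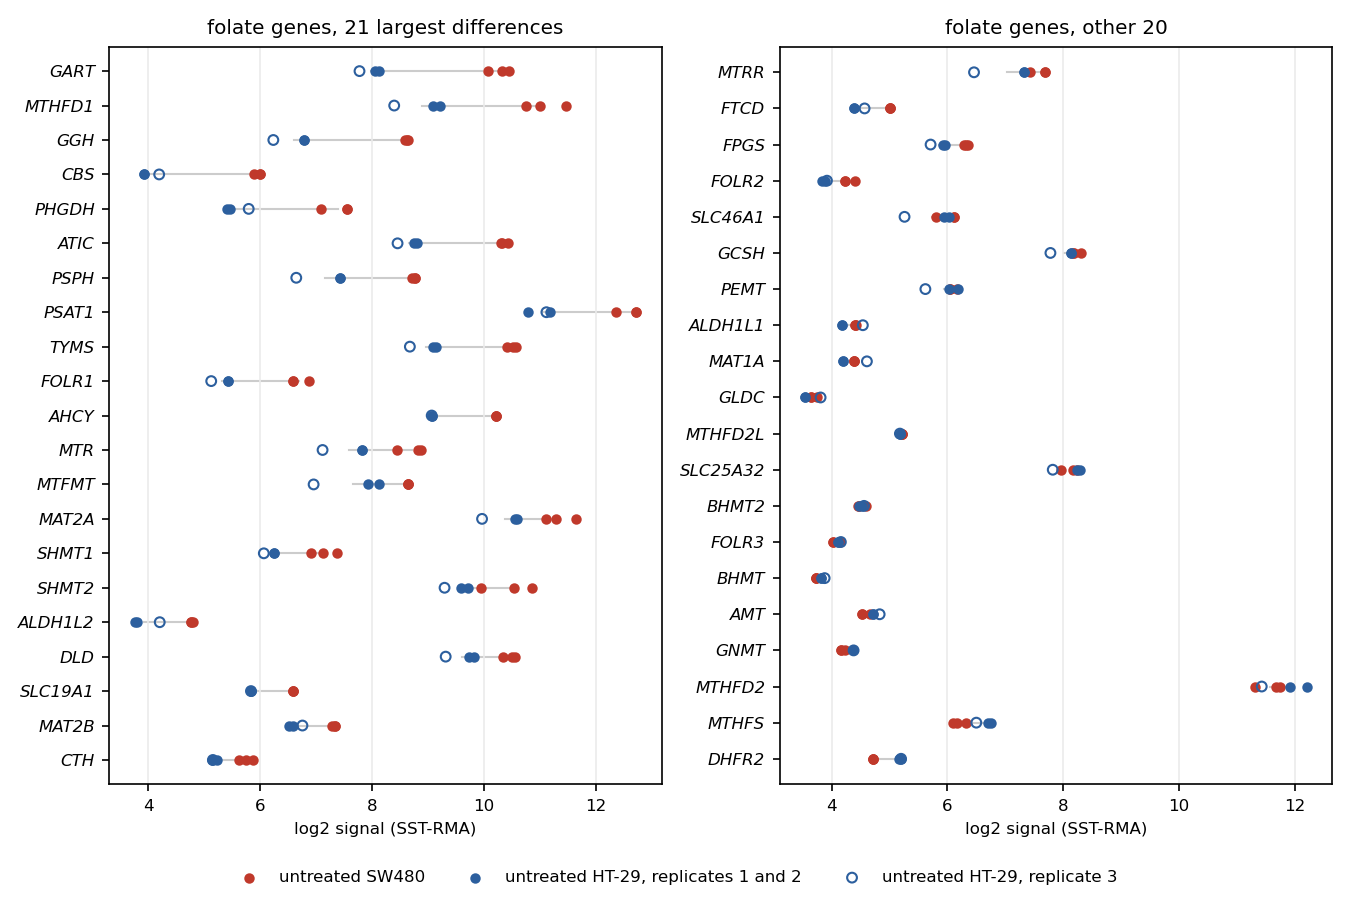
Log2 signal on each untreated array (x axis) for the 41 folate and one-carbon genes (rows, ordered by difference), with red points for SW480_0, filled blue points for HT-29_0 replicates 1 and 2 and open points for HT-29_0 replicate 3. In the left panel each red point lies right of each blue point, from GART (2.30) down to a difference of 0.57, while in the right panel the lines overlap or lie close for most genes.

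Among genes that write, remove and read DNA methylation, 10 of 22 were higher (45.5%) and 3 lower, against 10 higher and 5 lower without HT-29_0 replicate 3. The median of 0.15 was 0.04 without that array and turned to -0.14 after another quantile normalization. At a level of at least 6, 8 of 18 members were higher and 2 lower, with a median of 0.15. Over all genes of that level 50.6% were higher and 14.1% lower, with a median of 0.46, so this list was not higher as a group. The maintenance methyltransferase DNMT1 had 12.37, 12.20 and 12.40 in SW480_0 and 10.51, 10.61 and 9.88 in HT-29_0, and its partner UHRF1, which brings it to replicated DNA, was higher by 1.36. The de novo enzymes DNMT3A (6.33 in SW480_0 and 6.25 in HT-29_0) and DNMT3B (5.16 and 5.25) were not called, although DNMT3B was called lower (-0.09) without HT-29_0 replicate 3. TET1, which oxidises methylcytosine, had 6.23, 6.04 and 6.23 against 4.26, 4.26 and 4.68 in HT-29_0, while TET3 was lower (-0.91), as was the glycosylase TDG (-1.14). The methyl-CpG readers ZBTB38 (3.45), ZBTB33 (1.99) and ZBTB4 (1.80) were higher. Cancer-testis antigens, which are germline genes silenced by methylation in most tissues, stayed dim. None of the 28 measured had a mean level of 6 over the arrays, and 4 were higher and 7 lower, against 9 higher and 8 lower without HT-29_0 replicate 3.

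Of 25 HOX genes, which encode position along the body axis, 12 were higher (48%) and 6 lower. HOXD10 had 6.78, 6.78 and 6.53 in SW480_0 and 3.92, 4.08 and 4.39 in HT-29_0, and HOXC10, HOXB8 and HOXB7 were higher by 2.22, 2.02 and 1.53. HOXA2 (-2.60) and HOXB9 (-1.40) were lower, and HOXC4, HOXC5, HOXC6 and HOXC13 were lower while HOXC8 to HOXC11 were higher. Of 40 genes of lipid and glycan metabolism, 17 were lower (42.5%) and 11 higher. The lower members included GCNT3, GALNT3 (-3.79) and ST3GAL1 (-4.02), which act on O-linked sugars, and also FUT3 (-1.08) and FUT2 (-1.07), which add terminal fucose. FUT8, which adds core fucose to N-linked sugars, had 8.44, 8.34 and 8.34 against 4.94, 5.05 and 4.87 in HT-29_0. The sterol enzymes SQLE (-1.73) and HMGCS1 (-1.48) were lower, while ACLY (1.79) and PLIN2 (1.93) were higher and FASN (0.54) and SCD (1.52) did not pass.

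Differences were not spread evenly over the chromosomes. Among genes with a level of at least 6, the median difference was 1.10 on chromosome 14 (286 genes), 1.09 on chromosome 21 (77 genes) and 1.01 on chromosome 3 (470 genes), against 0.46 over all such genes. On chromosome 21 68 genes were higher (88.3%) and 1 was lower, and on chromosome 14 77.6% were higher and 3.85% lower, against 50.6% and 14.1% over all chromosomes. Chromosome 15 was at the other end, with a median of -0.21, 57 of 304 genes higher (18.8%) and 108 lower (35.5%). Without HT-29_0 replicate 3 the medians were 0.97, 1.06 and 0.87 on chromosomes 14, 21 and 3 and -0.45 on chromosome 15. Chromosome 18, which holds SMAD4, GATA6 and DSC2, all lower, and APCDD1 and TYMS, both higher, had 0.12 with all arrays and -0.11 without that one. Genes of a chromosome share its copies and are no independent replicates, and copy number was not analysed here.

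**Figure D5:**
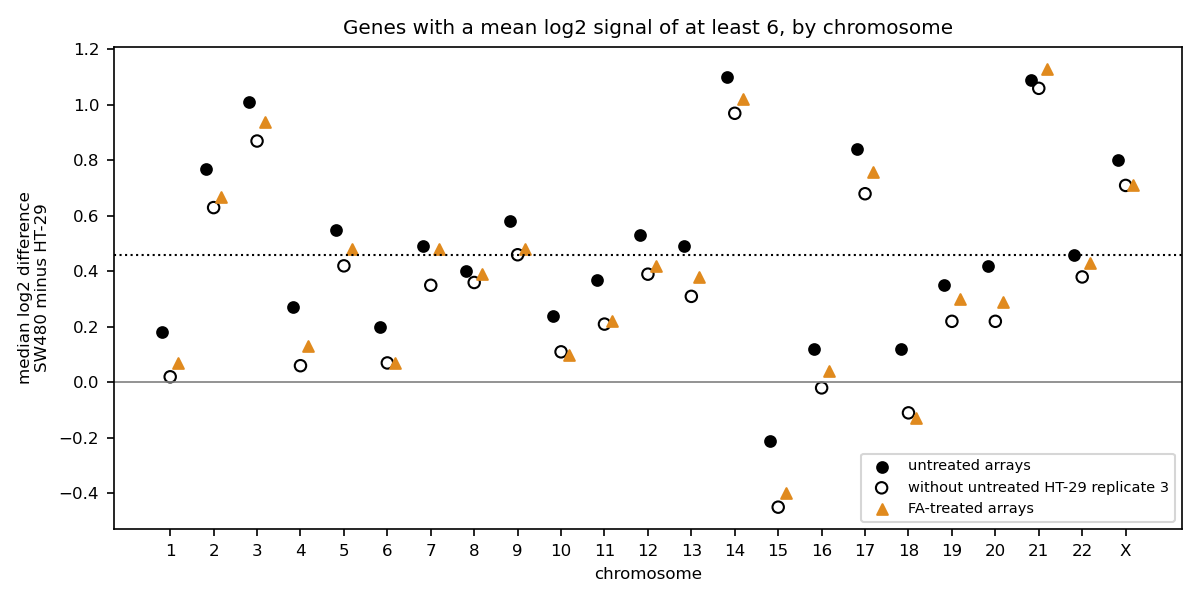
Median log2 difference between SW480 and HT-29 (y axis) of genes with a mean log2 signal of at least 6, by chromosome (x axis). Filled circles are the untreated arrays, open circles leave out HT-29_0 replicate 3, triangles are the FA-treated arrays and the dotted line is the median of all such untreated genes (0.46). Chromosomes 3, 14 and 21 lie highest and chromosome 15 lowest by each measure.

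The FA-treated arrays gave the same comparison on other arrays. There 8311 genes were higher in SW480 (37%) and 3632 were lower (16.2%). Of the 12101 genes called between the untreated lines, 12056 had the same sign at 10000 ng/mL FA, 7477 were called higher and 3077 lower at both, and 1 had the opposite call. Values of a gene on the treated arrays are from the same 2 lines, so this repeats the measurement and not the sampling of lines. The treated difference was 13.31 for KRT5, -13.69 for LYZ, -5.76 for CDH1, 3.01 for ZEB1, 6.31 for DUSP6 and 1.64 for TYMS. Some genes had smaller values there. HES1 differed by 1.45 between the treated lines and by 4.06 between the untreated ones, EGR1 by 5.34 and 7.18, CCL2 by 5.61 and 7.88, GCLM by -1.26 and -3.02 and TXNRD1 by -1.11 and -2.38. Whether the line difference itself changed with FA was tested as an interaction. By limma 0 genes passed adjustment, and 600 had an unadjusted p under 0.05, so none of these smaller values was called.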

How the data were processed

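The authors hybridised RNA to Human Transcriptome Array 2.0 chips and made log2 values with SST-RMA (background subtraction, normalization and summarisation) in Transcriptome Analysis Console 4.0. These deposited log2 values of 12 arrays and 67528 transcript clusters were used as they stand. All 12 arrays were fitted as 4 groups with limma 3.58.1 in R 4.3.3 (8 residual degrees of freedom), and the contrast was untreated SW480 minus untreated HT-29. A gene was called at a Benjamini-Hochberg adjusted p under 0.05 over all clusters. Figures were drawn with matplotlib 3.10.9.

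Symbols came from the platform table: 42204 clusters had none and 1543 several, and these were not named. Named by rule were the 15 largest differences in each direction that were called with and without HT-29_0 replicate 3 and did not overlap, from each list the defining members and at most 5 others in order of p, and all folate genes. Other members were named after their values were seen. The comparison and the 27 lists (774 of 886 entries had a cluster) were chosen with earlier results of these data known. No detection calls were used, so dim values have no floor, and a difference against a dim gene may be understated. The number of arrays limits the precision. With 3 arrays per group an exact permutation test could not pass the threshold and was not used. The labels do not say that the replicate numbers pair the arrays. Same-numbered SW480_0 and HT-29_0 arrays had deviations that correlated at 0.265, -0.273 and 0.022. These deviations are from group means that include HT-29_0 replicate 3, so the correlations cannot settle whether the arrays are paired. Alternatives were other sample sets, normalizations, filters and call rules, and leaving out each array.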

Additional observations from a re-analysis of the deposited data

How the results depend on the processing

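Counts of genes higher and lower in SW480_0 were 8271 and 3830. Leaving out each of the 12 arrays in turn gave 7474 to 10323 higher and 3127 to 4931 lower genes, both highest without HT-29_0 replicate 3. Array weights gave 6125 lower genes, with a weight of 14.8 for HT-29_0 replicate 1 and 0.033 for replicate 3 and a warning on convergence. The study's criteria (unadjusted p and 1.5-fold) gave 2033 lower genes, and an adjusted p with 2-fold gave 3217 higher and 951 lower. Leaving out the 15689 clusters with equal values on the arrays of any of the 4 groups, added after seeing the data, gave 4495 and 1940 among fewer genes. A replicate block gave 7934 and 3567, although the labels do not say that the replicate numbers pair the arrays. Another quantile normalization gave 7182 and 5332. Of the 189 genes named by rule, 175 were called, 161 of them under every one of the 22 settings in which they were tested, and 0 reversed. Without the clusters of equal values, 97 of the 189 kept their call or lack of one and 1 lost its call. The rest of the named genes were left out of that setting and not tested there. List medians changed sign for DNA methylation genes (-0.14, quantile normalization, against 0.15), microRNA loci (0.03, against -0.09), fibroblast markers (0.07, against -0.01) and blood and endothelial markers (0.08, against -0.05), the last 3 without HT-29_0 replicate 3, and for blood and endothelial markers also after quantile normalization (0.03). The cause of these shifts was not tested.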
